A study of Mus musculus with 6 samples.

Results

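The guanylate-binding proteins (GBPs) and immunity-related GTPases (IRGs) followed here are 10 mouse genes, namely Gbp2, Gbp3, Gbp5, Gbp7, Gbp9, Irgm1, Irgm2, Igtp, Iigp1 and Tgtp1. The rule lists them by name and uses no measured value, but they were picked with earlier results of these data known. The arrays carried 11 probes for 9 of them, out of 56605 probes and 23462 named genes. Irgm1 had 3 probes, Tgtp1 had none matched to its name, and each of the other members had 1 probe.

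Gene expression was measured in BV2 cells, an immortalized line of mouse microglia, after LPS, the lipopolysaccharide of bacterial outer membranes. There were 3 arrays of cells without PGC-1α overexpression (control) and 3 arrays labelled PGC-1α overexpression, each with 1 RNA sample. PGC-1α, encoded by Ppargc1a, is a transcriptional coactivator of mitochondrial genes. According to the methods, it was delivered to BV2 cells by lentivirus with puromycin selection, control cells received a negative control virus, and LPS was given at 500 ng/ml for 6 h, although those methods do not name the arrays. The sources do not say whether the 3 samples of a group were separate cultures, so p-values measure the spread between these samples, which may be technical. Since RNA was taken from whole cultures, fewer cells of a type and less RNA per cell cannot be told apart.

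The arrays lay on 2 slides, and replicates 1 and 2 of both groups shared slide 1 while replicate 3 of both was on slide 2. The 75th percentile of the intensity ran from 1617 to 1893 on the control arrays and from 856 to 1268 on the overexpression arrays. Levels are therefore given as log2 intensity relative to the 75th percentile of the same array. On this scale the 17062 genes tested had a median log2 fold change of 0.23, against 0.03 after quantile normalization. The 12040 probes that were not well above background on any of the 6 arrays had a median difference of 0.41, with 5th and 95th percentiles of -0.28 and 1.12. Ppargc1a had 2 probes, and each was dim on at least 1 array of either group, too dim for the test. They differed by 1.14 and 0.26 between overexpression and control, so the arrays check the label only weakly. Of 10 microglia and macrophage markers, 9 were well above background on all 6 arrays, while Cx3cr1, the fractalkine receptor of microglia, was not well above background on any of them.

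GBPs are large GTPases that coat pathogen vacuoles and cytosolic bacteria, and several of them help caspase-4 (caspase-11 of the mouse) to sense LPS. IRGs are smaller GTPases of the same defence. Irgm1, Irgm2 and Igtp (also called Irgm3) are regulators that guard host membranes and keep the others inactive, and Iigp1 and Tgtp1 are effectors that are loaded onto pathogen vacuoles and break them open. Most of these genes are induced by interferon-γ, which acts through promoter elements called GAS sites, and by type I interferon, which acts through ISRE sites. In macrophages and microglia, LPS reaches the same genes through the interferon-β that it induces.

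The members did not move together. Gbp2 was higher in the overexpression arrays, Igtp, Irgm1 and Gbp9 were lower, and the intervals of Gbp7 and Irgm2 included 0. Counted by the brightest tested probe, 1 of the 6 member genes tested was past the threshold (adjusted p of 0.05, limma) as higher and 3 as lower. Over all genes tested, 34.8% were higher and 18.5% lower. After quantile normalization the counts of members were again 1 and 3, beside 21.4% of all genes higher and 21.1% lower. Counted over the 8 tested member probes, 1 was higher and 5 were lower, beside 35.4% and 18.4% of all probes tested, and 3 of the 5 belong to Irgm1. Of these 6 probes, 4 were well above background on all arrays of only 1 group, namely Gbp2, Gbp9 and both dimmer Irgm1 probes, and they entered the test through the group where they are higher. The counts are therefore a description. With only probes well above background on all 6 arrays, 4 member genes remained, 0 were higher by limma (0 at an unadjusted p under 0.05) and 2 were lower, Igtp and Irgm1. Under that filter 5483 of all 15536 genes tested were higher and 2965 lower. The median log2 fold change of the 6 genes was -0.32. Gbp2 is the highest of them both as fitted and at the bound given below, so the choice between these cannot change the median. Relative to the median of all genes the member median was -0.55, and the size of this difference depended on the processing. It was -0.45 after quantile normalization and -0.076 with no filter on dim probes. After normexp (a model-based background correction that adds an offset of 50 to each signal) with the 75th percentile it was -0.051. When each array was left out in turn it was -0.62 to -0.27, over 6 or 7 member genes. The 3 untested members, Gbp3, Gbp5 and Iigp1, did not reach the detection limit set for the test.

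**Figure D1:**
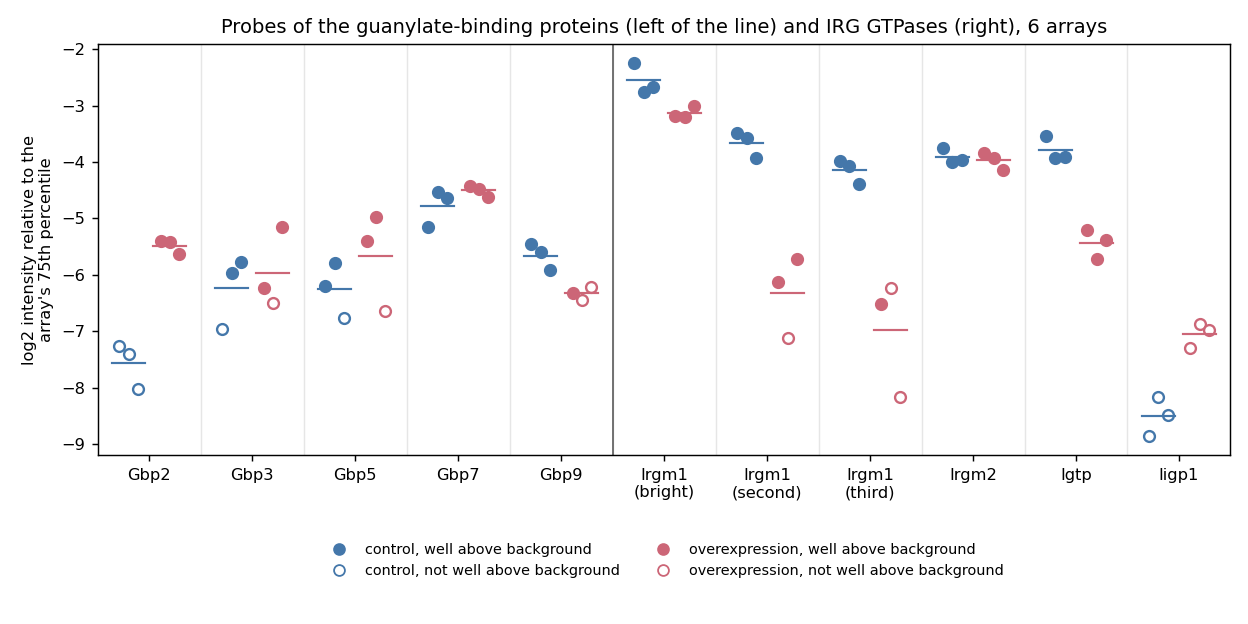
Log2 intensity relative to the array's 75th percentile (vertical axis) for the 11 member probes on each of the 3 control and 3 overexpression arrays, with a line at each group mean. Filled points were well above background and hollow points were not. Igtp and all 3 Irgm1 probes sit lower on every overexpression array than on any control array, and Gbp2 is well above background on the overexpression arrays alone.

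The promoters of the regulators are shown because Igtp and Irgm2 lie next to each other on chromosome 11 and carry nearly the same interferon-response block, yet their probes differed between the groups to a different extent. The 120 bases before the annotated start are given 5′ to 3′ along the gene, from RefSeq on GRCm38.p6, and capitals mark matches to an ISRE-type core (GAAANNGAAA, either strand) or a GAS-type site (TTCNNNGAA, which reads the same on both strands). The stretches are chr11:58199436-58199555 (plus strand) for Igtp, chr11:58214857-58214976 (plus) for Irgm2, chr11:48871421-48871540 (minus) for Irgm1 and chr11:48992247-48992366 (minus) for Tgtp1.
Igtp: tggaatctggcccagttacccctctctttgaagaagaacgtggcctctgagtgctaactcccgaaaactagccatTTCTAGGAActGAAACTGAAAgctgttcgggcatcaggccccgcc
Irgm2: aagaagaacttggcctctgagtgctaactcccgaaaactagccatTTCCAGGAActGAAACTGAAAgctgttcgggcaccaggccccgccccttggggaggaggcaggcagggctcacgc
Tgtp1: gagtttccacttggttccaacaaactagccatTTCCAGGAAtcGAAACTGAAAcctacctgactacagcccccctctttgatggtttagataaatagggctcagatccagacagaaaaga
Irgm1: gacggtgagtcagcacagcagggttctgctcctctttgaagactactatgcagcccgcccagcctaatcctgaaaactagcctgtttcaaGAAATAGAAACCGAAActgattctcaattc

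In Igtp, Irgm2 and Tgtp1 a GAS-type match was followed after 2 bases by an ISRE-type core, a block of 21 bases. Counted from the annotated start, the block began at base -45 in Igtp, -75 in Irgm2 and -88 in Tgtp1. A search along the gene's strand, made after these promoters had been seen, found this order and spacing in the promoters of 5 of 27025 genes, and the other two were Gm12185 and Tgtp2, which also encode GTPases of this family. Counted from 1 at the first base of the block, Irgm2 differed from Igtp by T4C, and Tgtp1 by T4C, C10T and T11C. Irgm1 had overlapping ISRE-type cores and no GAS-type match in its window. These are matches of letters and were not tested as binding sites.

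Igtp is a regulatory IRG. Its levels were -3.54, -3.93 and -3.91 for control replicates 1, 2 and 3, in the order used throughout, and -5.20, -5.71 and -5.39 for overexpression replicates 1, 2 and 3. All 3 overexpression arrays were below all 3 control arrays. The mean fell from -3.79 ± 0.22 (SD, n = 3) to -5.44 ± 0.26 (SD, n = 3), and the log2 fold change was -1.64 (SE 0.18, adjusted p = 0.000547). The difference was -1.72 within slide 1 and -1.48 within slide 2. Igtp passed the threshold in all 18 alternatives in which it was fitted, with an adjusted p from 0.000282 to 0.0278. The smallest fall was -0.40, after normexp with the 75th percentile, which adds an offset of 50. The background-subtracted signals of this probe, used without normexp, ran from 16.3 to 139.

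Irgm2 is the neighbour of Igtp and another regulator. It gave -3.75, -4.01 and -3.96 in the controls and -3.84, -3.93 and -4.14 with overexpression. The groups overlapped, and every array was well above background. The log2 fold change was -0.07, with a 95% interval from -0.40 to 0.27 (adjusted p = 0.723). This value changed sign under some alternatives, with a highest value of 0.22 after normexp with the 75th percentile. Within an array, the log2 ratio of the Igtp probe to the Irgm2 probe does not depend on the scaling between arrays. It was 0.21, 0.08 and 0.05 in the controls and -1.36, -1.78 and -1.25 with overexpression. The difference of -1.58 was lower on 3 of 3 overexpression arrays and had an exact permutation p of 0.1 (two-sided), the smallest that 3 against 3 arrays can give. The probes of these neighbours thus changed unequally between the groups.

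Irgm1, a regulator needed for macrophage defence against intracellular bacteria, was measured by 3 probes of the same transcript accession, whose positions in the transcript are not given in the files used here. The brightest probe, which stands for the gene in the counts, gave -2.24, -2.75 and -2.66 in the controls and -3.19, -3.21 and -3.00 with overexpression. All 3 probes were lower on every overexpression array than on any control array, but by different amounts. For the brightest probe the log2 fold change was -0.58 (SE 0.17, adjusted p = 0.0219). It was -0.70 within slide 1 and -0.34 within slide 2.

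The second Irgm1 probe gave -3.48, -3.57 and -3.92 in the controls and -6.13, -7.12 and -5.73 with overexpression. The third gave -3.99, -4.07 and -4.38 in the controls and -6.52, -6.24 and -8.16 with overexpression. Both dropped toward the background, the second being well above it on 2 and the third on 1 of the 3 overexpression arrays. Their log2 fold changes were -2.67 (SE 0.33, adjusted p = 0.000856) and -2.83 (SE 0.45, adjusted p = 0.00227). These sizes rest in part on signals not well above background, on 1 array for the second probe and on 2 for the third. Within an array, the log2 ratio of the second to the brightest Irgm1 probe was -1.24, -0.82 and -1.26 in the controls. It was -2.94 and -2.73 on overexpression replicates 1 and 3, where both probes were well above background. The size of the fall of Irgm1 thus differed between these probes, and the mean over its 3 probes was -2.03. The call on the brightest probe was lost without control replicate 1 (-0.43, adjusted p = 0.065), without overexpression replicate 1 (-0.55, adjusted p = 0.0729), without overexpression replicate 2 (-0.55, adjusted p = 0.0516), with no filter on dim probes (adjusted p = 0.0502) and after normexp with the 75th percentile (-0.29, adjusted p = 0.118). In those 5 alternatives the other Irgm1 probes, wherever they were fitted, stayed past the threshold, although after normexp with the 75th percentile their values were -0.80 (adjusted p = 0.000426) and -0.50 (adjusted p = 0.012).

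Of the effectors among the members only Iigp1 was measured, and it was at the floor of the arrays. Iigp1, which oligomerizes on parasite vacuoles, gave -8.87, -8.16 and -8.49 in the controls and -7.29, -6.88 and -6.98 with overexpression. None of these was well above background, so no fold is given. The groups did not overlap, and the difference of 1.45 exceeded the 95th percentile given above for probes not well above background on any array. Part of those probes lies above that percentile by construction, so these values cannot decide whether Iigp1 differed. Tgtp1 was not measured under its own name, and the probe of Tgtp2, its near-identical copy, was not well above background on any of the 6 arrays.

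**Figure D2:**
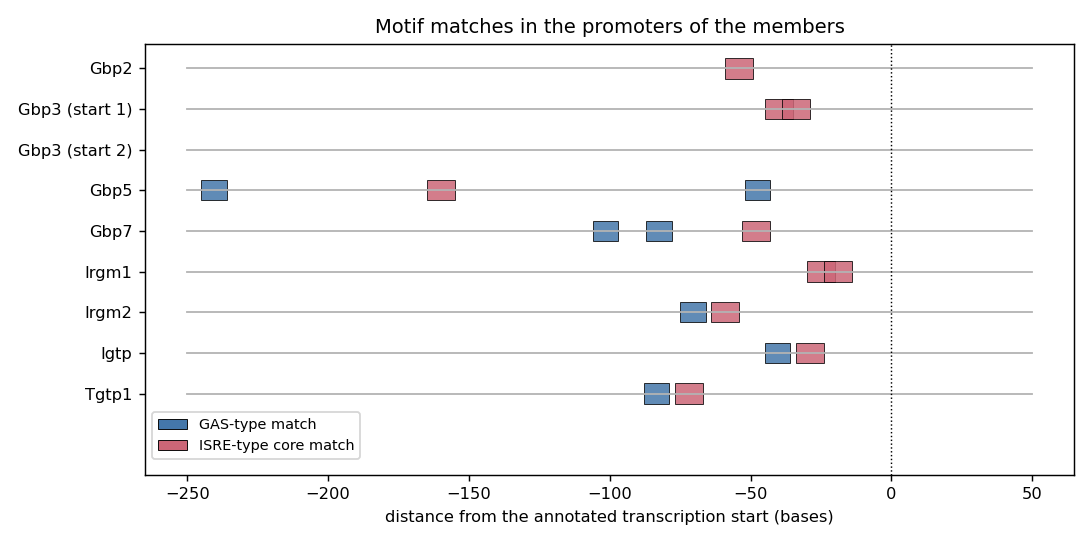
Matches to the GAS-type site and the ISRE-type core (boxes, to scale) in 9 promoters of 8 members, by distance in bases from the annotated start (horizontal axis, from 250 before to 50 after). The block of both motifs recurs in Irgm2, Igtp and Tgtp1. The promoters of Gbp2 and Irgm1 and the first start of Gbp3 hold ISRE-type cores without a GAS-type match.

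The promoters of the GBPs held the same kinds of match in other arrangements. Gbp2, which rose, and Gbp7, which did not pass the test, are shown as examples, with the same capitals and source. Both hold an ISRE-type core, as all members with a promoter read here do. The stretches are chr3:142620543-142620662 (plus) for Gbp2 and chr3:142530216-142530335 (plus) for Gbp7.
Gbp2: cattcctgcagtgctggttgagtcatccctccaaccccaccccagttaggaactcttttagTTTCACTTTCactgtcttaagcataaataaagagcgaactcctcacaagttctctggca
Gbp7: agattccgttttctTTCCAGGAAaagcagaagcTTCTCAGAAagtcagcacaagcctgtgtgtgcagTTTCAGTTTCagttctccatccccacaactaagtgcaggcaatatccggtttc

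Promoters of 8 of the 10 members were read, with 2 starts for Gbp3. Gbp9 and Iigp1 were not among them. The chromosome of Iigp1 was left out for the members but kept in the counts over all genes. All 8 had an ISRE-type core in at least 1 window of 300 bases, against 3.99% of the 27025 genes with a promoter, and 5 of the 8 had a GAS-type match, against 9.55%. Both motifs stood in the windows of Gbp5, Gbp7, Irgm2, Igtp and Tgtp1, against 0.54% of genes. Of the measured members with both, Igtp fell, Gbp7 and Irgm2 did not pass the test, and Gbp5 was too dim to enter it.

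Gbp2, which coats vacuoles and bacteria and is anchored to membranes by a lipid tail, gave -7.27, -7.40 and -8.02 in the controls and -5.40, -5.42 and -5.64 with overexpression. It was well above background on 0 of 3 control arrays and on 3 of 3 overexpression arrays, and the groups did not overlap. The measured means were -7.56 ± 0.40 (SD, n = 3) and -5.49 ± 0.13 (SD, n = 3). Because the control arrays give only a bound, Gbp2 was at least 2.36-fold higher with overexpression by the limit described below, relative to the 75th percentile and without normexp. It entered the test through the overexpression arrays alone and was not tested where every array had to be well above background. This bound sets the mean of the overexpression arrays against, on each control array, the higher of the probe's own signal and the lowest signal well above background. That lowest signal is taken over all probes of the array, and the limit of this probe may lie higher. The overexpression signals were 27.4, 19.98 and 25.5 intensity units against 10.5, 9.64 and 7.30 in the controls, so the difference lies at the low end of the range of the arrays. The fitted difference, which is no bound and uses control signals not well above background, was 2.07 (adjusted p = 0.000375, limma). It was 0.80 after normexp with the 75th percentile. After normexp with quantile normalization it was 0.34 (adjusted p = 0.0172), the highest adjusted p of the alternatives in which it was fitted.

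Gbp9 lies in the GBP cluster of chromosome 5. It gave -5.46, -5.60 and -5.92 in the controls and -6.32, -6.45 and -6.21 with overexpression. The groups did not overlap, and 1 of 3 overexpression arrays was well above background. The log2 fold change was -0.67 (SE 0.16, adjusted p = 0.0107), with -0.86 within slide 1 and -0.29 within slide 2. The direction was not kept after normexp with the 75th percentile, where the value was 0.21 (adjusted p = 0.223).

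Gbp7, Gbp5 and Gbp3 lie next to each other in the GBP cluster of chromosome 3, which also holds Gbp2. Gbp7 was well above background on all 6 arrays, at -5.15, -4.53 and -4.65 in the controls and -4.42, -4.47 and -4.62 with overexpression. The groups overlapped, and the log2 fold change was 0.27, with a 95% interval from -0.15 to 0.70 (adjusted p = 0.238). After normexp with the 75th percentile it passed the threshold (0.39, adjusted p = 0.0305), where the median of all genes was 0.26.

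Gbp5, known for promoting inflammasome assembly, gave -6.19, -5.79 and -6.77 in the controls and -5.40, -4.98 and -6.65 with overexpression. The groups overlapped, 2 of 3 arrays of each group were well above background, and the difference of 0.58 had an exact permutation p of 0.4. On slide 1 alone both overexpression arrays exceeded both control arrays, by 0.80 on average, and the difference on slide 2 was 0.13. Without overexpression replicate 3 Gbp5 entered the test and passed it (1.06, adjusted p = 0.0201). Gbp3 gave -6.95, -5.97 and -5.78 in the controls and -6.23, -6.51 and -5.16 with overexpression, a difference of 0.27 between overlapping groups (exact permutation p = 0.7).

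**Figure D3:**
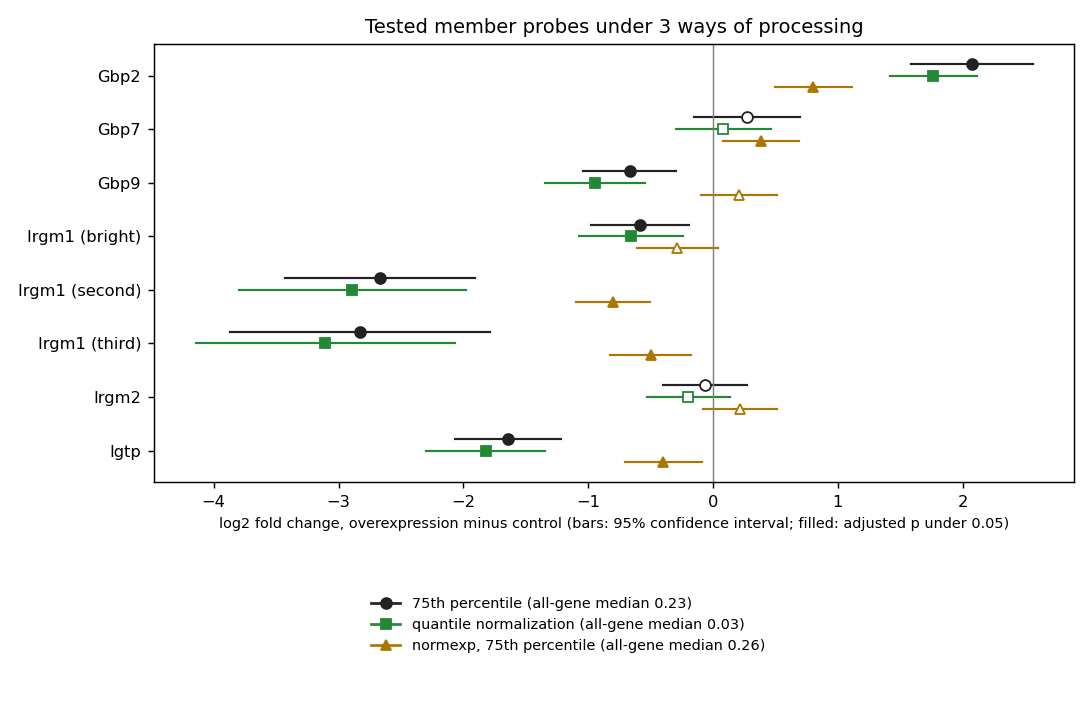
Log2 fold change of overexpression against control (horizontal axis) for the 8 tested member probes, with 95% confidence intervals, under 3 ways of processing. Filled symbols passed an adjusted p of 0.05. Igtp and both dimmer Irgm1 probes stay below 0 in all 3, Gbp2 stays above 0 (fitted against control signals not well above background), and Gbp9 lies at -0.67, -0.94 and 0.21.

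The GTPases of the same families outside the 10 members were compared as a list of 19 genes, of which 16 had a probe and 11 were tested. There were 5 higher, 1 lower and 5 past neither side, beside 34.8% of all genes higher and 18.5% lower, and their median was 0.17, below the 0.23 of all genes. After quantile normalization 3 were higher and 2 lower. Gm4951, an IRG of the Iigp1 type, had the largest rise (0.88, adjusted p = 0.0103), and Irgq, a divergent IRG, was the gene that fell (-0.42, adjusted p = 0.035, and 0.0528 on the authors' log2 values). Gbp2b, Gbp4, Gbp6 and Tgtp2 were not well above background on any of the 6 arrays. Gm12185, which holds the block of both motifs, was chosen after its promoter had been seen. It gave -6.65, -6.80 and -6.19 in the controls and -5.77, -5.57 and -5.89 with overexpression (0.80, adjusted p = 0.0096), with 1 of 3 control arrays well above background, 0.54 after quantile normalization (adjusted p = 0.0828) and 0.13 after normexp with quantile normalization (adjusted p = 0.332). Of the genes with this block, Igtp thus fell, Irgm2 did not pass the test, the call on Gm12185 depended on the scaling, and Tgtp2 was not well above background.

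The signals that induce the members were measured as well. Among 8 genes for interferons and their receptors, 6 were tested, 1 was higher and 2 were lower. Ifnb1, encoding interferon-β, was higher on every overexpression array, with -5.73, -5.41 and -5.84 in the controls against -4.94, -4.45 and -4.94 (0.89, SE 0.19, adjusted p = 0.0068). Both chains of the interferon-γ receptor were lower on every overexpression array, Ifngr1 by a log2 fold change of -0.56 (SE 0.14, adjusted p = 0.011) and Ifngr2 by one of -0.95 (SE 0.13, adjusted p = 0.00116). Ifng itself was well above background on 1 of the 6 arrays and was not tested. All 3 calls held after quantile normalization, and that of Ifngr2 also after normexp with either scaling. After normexp with quantile normalization Ifnb1 was at 0.22 (adjusted p = 0.117) and Ifngr1 at -0.35 (adjusted p = 0.0932), and after normexp with the 75th percentile Ifngr1 was at -0.34 (adjusted p = 0.0692). The chains of the type I interferon receptor, counted by their brightest probes, did not pass, with Ifnar1 at 0.13 and Ifnar2 at 0.03. Their dimmer probes differed from these, with Ifnar2 at -1.43 (adjusted p = 0.000386) by its other probe and Ifnar1 at -0.40 (adjusted p = 0.0359) and -0.36 (adjusted p = 0.0812), so the direction of this receptor depends on the probe.

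Among 7 kinases and transcription factors of the pathway, 6 were tested, 1 was higher and 3 were lower, with a median of -0.47, which is -0.70 relative to all genes. Irf1, a transcription factor that acts on many GBP genes, did not pass by its brightest probe (-0.22, adjusted p = 0.319), and its other probe gave -0.47 (adjusted p = 0.0229). Irf8, a factor of macrophage identity, had the largest fall of the list (-0.85, SE 0.15, adjusted p = 0.00367). Stat2 had the largest rise by its brightest probe (0.51, adjusted p = 0.021), whereas its other probe was lower (-0.58, adjusted p = 0.0202), so the direction of Stat2 is unsettled here.

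Of 6 brakes on interferon signalling, all were tested, 3 were lower and 3 past neither side, with a median of -0.41. Quantile normalization gave 4 lower. Ptpn6, counted as past neither side, had other probes at -0.65 (adjusted p = 0.0239) and -0.04 (adjusted p = 0.817). Pias1, counted as lower, was at -0.31 (adjusted p = 0.296) by its other probe. Socs3, an inhibitor of cytokine receptors that STAT3 induces, had the largest fall, from 1.098, 0.63 and 0.70 on the control arrays to -1.04, -1.24 and -0.98 on the overexpression arrays (-1.90, SE 0.17, adjusted p = 0.000209).

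GBPs and IRGs act together with further proteins, and 4 lists followed these. The ATG8 conjugation genes place GBPs and IRGs on vacuoles, and of 10 tested 6 were higher and 4 past neither side, with Gabarap at 0.85 (SE 0.15, adjusted p = 0.0033). By its other probe Atg7, counted as higher, was at -0.15 (adjusted p = 0.347), while the other probes of Gabarapl1, Gabarapl2 and Map1lc3b were also higher. After quantile normalization 2 of the 10 were higher, with Gabarap at 0.39 (adjusted p = 0.0284). Of 4 tested genes that mark damaged vacuoles, 2 were higher, with Lgals3, a galectin that binds exposed glycans, at 0.67 (adjusted p = 0.00704). By their other probes, Sqstm1, counted as higher, was at -0.24 (adjusted p = 0.246), and Traf6, counted as past neither side, at -0.90 (adjusted p = 0.00799). The other probes of Lgals3 (0.59, adjusted p = 0.0125) and Lgals8 (-0.19, adjusted p = 0.302) kept their calls. After quantile normalization 0 of the 4 genes were called by limma and 0 had an unadjusted p under 0.05, with Lgals3 at 0.05 (adjusted p = 0.715). Of 4 tested genes of protein prenylation, which adds the lipid tail of some GBPs, 2 were higher, with Icmt at 0.52 (adjusted p = 0.0368), and after quantile normalization 0 of the 4 were called by limma and 1 had an unadjusted p under 0.05, with Icmt at 0.39 (adjusted p = 0.0873).

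Of 7 inflammasome genes downstream of GBPs, 2 were higher and 3 lower. By their other probes, Aim2, counted as past neither side, was at -1.13 (adjusted p = 0.00696), and Gsdmd, counted as higher, at 0.31 (adjusted p = 0.15). Nlrp3, the sensor of the inflammasome of that name, had the largest fall (-1.65, SE 0.17, adjusted p = 0.000372), and Pycard, its adaptor, had the largest rise (0.50, adjusted p = 0.0419). After quantile normalization 3 were lower, 0 were higher by limma and 1 was higher at an unadjusted p under 0.05, with Nlrp3 again at -1.65 (adjusted p = 0.000598) and Pycard at 0.41 (adjusted p = 0.0681).

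**Figure D4:**
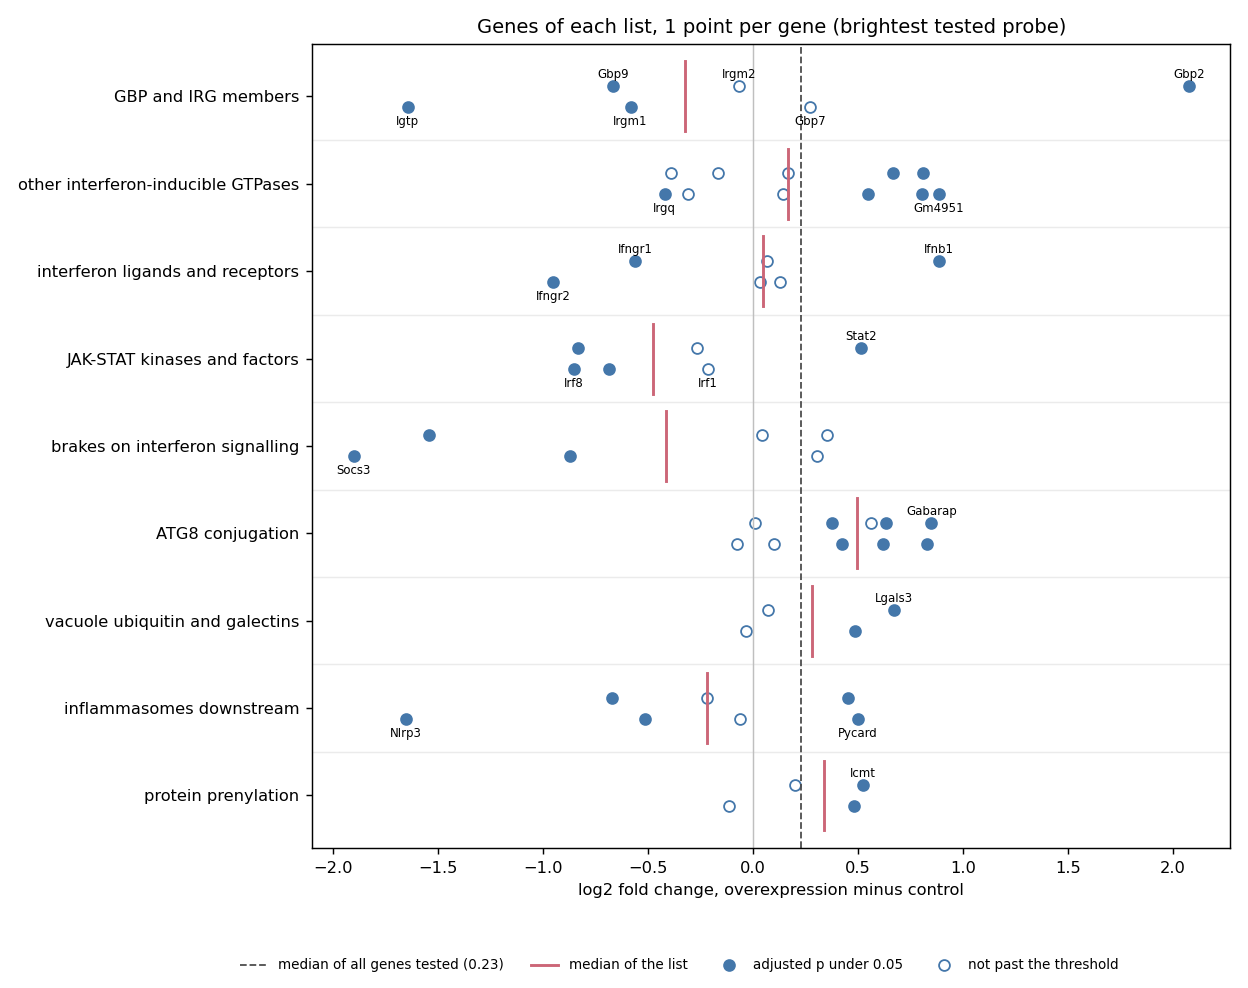
Log2 fold change (horizontal axis) of each tested gene of the members and of 8 lists, with the median of each list (short line) and the median of all genes tested (dashed line, 0.23). Filled points passed an adjusted p of 0.05, and names mark the members and the genes named in the text. The medians of the members (-0.32), of the JAK-STAT genes (-0.47) and of the brakes (-0.41) lie below that of all genes, and the median of the ATG8 conjugation genes (0.49) lies above it.

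Markers of other cell types also moved between the groups. Of 4 fibroblast markers, all well above background on the 6 arrays, 3 were higher and 1 was lower, and the summed signal of the list was 15.4 to 16.5 times the 75th percentile on the control arrays and 26.5 to 32.0 times with overexpression. For the 9 tested microglia markers, 5 higher and 4 past neither side, the sums were 87.3 to 90.8 and 124 to 147. After quantile normalization 2 fibroblast markers were higher and 1 lower, and of the microglia markers 0 were higher by limma, as at an unadjusted p under 0.05, and 1 was lower. Of the tested markers of other cells, 2 of 4 for astrocytes were higher, 2 of 4 for neurons were higher and 1 lower, and 2 of 5 for T cells were higher and 1 lower. Of 5 for oligodendrocytes 0 were called by limma and 1 was lower at an unadjusted p under 0.05. By another probe, Pdgfra, counted as lower, was at 1.13 (adjusted p = 0.0011). Map2 was at 1.54 (adjusted p = 0.0033) and Gja1 at -0.98 (adjusted p = 0.000908), both counted as past neither side. Mbp, past neither side, had other probes at 0.47 (adjusted p = 0.0342) and -0.58 (adjusted p = 0.0143). After quantile normalization astrocyte and oligodendrocyte counts were the same, and neurons and T cells each had 1 higher and 1 lower. The part of these markers in the changes of the members was not tested.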

How the data were processed

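RNA from 6 samples was hybridized to Agilent arrays, 3 per group. The labels name the dye Cy3, the methods Cy5, and the scanner files hold the green channel. The authors' software (Agilent Feature Extraction 11.5.1.1) gave a background-subtracted intensity per spot, deposited without scaling across arrays. A second deposited table holds the authors' log2 values of part of the probes, normalized in GeneSpring, used here as an alternative. Each intensity was converted to log2 relative to the 75th percentile of the 59305 spots other than controls on its array. Outlier spots were left out and repeated spots averaged. Accessions named 33767 probes through RefSeq genes of GRCm38.p6. The array design names an older build, so no probe position is given.

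A probe was tested with values on at least 2 arrays per group and a signal well above background on all 3 arrays of a group. Groups were compared in R 4.3.3 by limma 3.58.1 (lmFit, eBayes) with two-sided p-values, adjusted over 38919 probes by the Benjamini-Hochberg method, a threshold of 0.05 and no block. Genes were counted by their brightest tested probe, and other probes of some listed genes did not give the same call. Steps were tested on simulated data. Single values had an exact permutation test over arrays. The number of arrays limits the precision, and the background limits that of dim probes. Promoters were read with Python 3.11.15, pandas 2.3.3 and numpy 2.4.6, and plots were drawn with matplotlib 3.10.9.

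The members and lists were chosen with earlier results of these data known. The genes named are all members, the largest rise and the largest fall past the threshold in each list, Ifnb1, Ifngr1, Irf1 and Ppargc1a, with exceptions stated. A further gene was left out of its list and is not reported here. Conditions, replicate numbers and slides come from the labels. Same-numbered replicates deviated from their group means with correlations of -0.21, 0.00 and 0.59, so the numbers were not taken as pairs. Alternatives were other scalings, background corrections, filters, probe summaries, blocks, variance models, the authors' log2 values, a 2-fold rule and each array left out in turn. Proteins were not analysed here.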

Additional observations from a re-analysis of the deposited data

How the results depend on the processing

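The member median relative to all genes (-0.55) stayed negative in every alternative run. It was -0.45 after quantile normalization, -0.051 after normexp with the 75th percentile and -0.20 after normexp with quantile normalization. It was -0.076 with no filter on dim probes, which adds Gbp3, Gbp5 and Iigp1, and -0.41 on the authors' log2 values. When each array was left out in turn it ran from -0.62 to -0.27. It moved by over 1.5 times without control replicate 1 (-0.32), control replicate 3 (-0.31), overexpression replicate 2 (-0.28) and overexpression replicate 3 (-0.27). In each of these runs 7 members were tested, against 6 in the main run. Gbp3 was added without control replicate 1 and without overexpression replicate 2. Gbp5 was added without control replicate 3 and without overexpression replicate 3. The shift of the median there thus includes a change in the genes counted. The count of member genes higher was 2 after normexp with the 75th percentile (Gbp7 added) and 2 with no filter (Iigp1 added, whose probe is not well above background on any array). It was 0 when only probes well above background on all 6 arrays were kept, which drops Gbp2, and 1 to 2 with arrays left out, where Gbp5 was added without overexpression replicate 3. The count lower was 1 after normexp with the 75th percentile, 1 with a 2-fold rule, where Igtp remained, 2 with only probes well above background on all 6 arrays (Gbp9 dropped), 2 with no filter (Irgm1 lost) and 2 to 3 with arrays left out. No count over all genes is given here for the 2-fold rule, so the member count under it cannot be set beside a share of all genes. After normexp with the 75th percentile Gbp9 stood at 0.21 and Irgm2 at 0.22. With each array left out in turn Irgm2 ran from -0.13 to 0.020, and it was above 0 without control replicate 1 (0.015) and without overexpression replicate 3 (0.020). Normexp adds an offset of 50, which by construction shrinks the differences of dim probes. With a replicate block the counts were 1 higher and 3 lower, and the slide as a block gave the same, so neither changed a member call. Over all genes the replicate block called 6460 higher and 3290 lower, against 5944 and 3155 in the main run of 17062 genes. Normexp with the 75th percentile called 7291 of 17062 genes higher and 2784 lower, and no filter 5149 of 23333 higher and 2680 lower. With only probes well above background on all 6 arrays these were 5483 and 2965 of 15536. With each array left out in turn 4192 to 6315 were higher and 2488 to 3070 lower. Gbp2 in the controls and Iigp1 in both groups were not well above background, so the arrays give only bounds for them.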
